A study of Mus musculus with 36 samples.

Results

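Cd44, Ccr7, S1pr1, Klf2, Tcf7, Lef1, Satb1, Foxo1 and Bach2, 9 of the 45706 genes in each count table, were followed through CD4 T cells of mouse spleen. They were chosen by name as genes of naive T cell homing and quiescence, not by a threshold on a measured value, and all 9 had enough counts to be tested in every comparison. RNA of 36 libraries had been sequenced, and the labels placed 28 of them in 10 groups of C57BL/6J mice (WT) or of the strain C57BL/6J-Ets1-SE-KO (KO), whose deletion the sources used here do not describe further. The groups were naive cells (2 WT and 2 KO libraries), Th1 cells and Th2 cells of a first experiment (3 WT and 3 KO libraries each), and Th1 cells of a second experiment that were untransduced (2 WT and 2 KO), WT with an empty-vector retrovirus (4) or KO with an Ets1 retrovirus (4). Naive cells came from negative selection on beads, and Th1 cultures ran for 6 days on plate-bound anti-CD3 antibody with interleukin 12 at 10 ng/mL, interleukin 2 at 1 ng/mL and an antibody against CD28. The sources used here do not state the Th2 culture, the age of the mice, the number of animals behind each group or the promoter or marker of the retroviruses. For the other 8 libraries the title and the transduction label disagree, and these stay out of every comparison.

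Library titles carry numbers marked B and T, which the labels do not explain. In the naive set and in the first experiment every library carries B number 1 and the libraries of a group differ only in the T number, so the spread behind each p-value is that between libraries and may be technical only. The chi-square of the counts per degree of freedom was 4.69 between the 2 naive KO libraries but 1.94 between the 2 naive WT ones, inside the range of 1.26 to 1.99 for pairs in the second experiment that share a group and a B number and were summed there. Pairs in the first experiment gave 2.37 to 7.84. Counts assigned to genes ranged from 5069623 to 5852673 in the naive libraries, from 7311614 to 10256407 in the first experiment and from 1813288 to 6844944 in the second. Naive, first and second sets were separate sets of libraries, so a cell state and its set cannot be told apart.

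A naive T cell circulates between blood and lymphoid organs and divides little until it meets antigen. CCR7, a chemokine receptor, draws it into lymph nodes, and S1PR1, a receptor for sphingosine 1-phosphate, lets it leave again. The transcription factors FOXO1 and KLF2 keep this program on, and KLF2 binds the S1pr1 gene. TCF1 (the product of Tcf7) and LEF1 are related high-mobility-group factors of T cell identity, SATB1 organises chromatin in T cells, and BACH2 is a repressor that restrains effector differentiation. CD44, an adhesion receptor for hyaluronan, runs the other way: it is low on naive cells and high on activated and memory cells, and is the standard surface marker that separates them.

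The genotype check came first. Ets1 (chromosome 9, 32636221 to 32757820, GRCm38, plus strand) gave 1580 and 1579 CPM (counts scaled to library size) in the naive WT libraries against 599 and 623 in the naive KO ones. Its log2 fold change was -1.37 in naive cells (edgeR adjusted p = 1.73e-86), -0.45 in Th1 cells (adjusted p = 0.000644), -0.23 in Th2 cells (adjusted p = 0.177, not past the threshold of 0.05) and -0.75 in the untransduced cells (adjusted p = 0.0138). The last of these was lost without WT B number 2, KO B number 1 or KO B number 2 (adjusted p 0.0639 to 0.17). Gm27162, a long noncoding RNA gene downstream of Ets1, had no count in the libraries of the 5 KO groups and 1.4 to 7.6 CPM in each library of the 5 WT groups, the 28 grouped libraries; the 8 ungrouped ones are given at the end. The labelled cell type was checked by markers: 6 CD4 T cell genes (Cd3d, Cd3e, Cd3g, Trac, Trbc2, Cd4) summed to 1001 to 2504 CPM in all labelled libraries, against at most 20 for 5 B cell markers, 17.3 for 7 myeloid markers and 30.7 for 2 CD8 markers. The 4 regulatory T cell markers summed to 50.7 to 73.2 CPM in naive libraries and to 210 to 516 in helper libraries. They did not move together: in WT Th1 and WT Th2 against naive cells, Tnfrsf18 and Nrp1 were called higher and Foxp3 lower.

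All levels below are CPM scaled with one set of TMM factors, and each is exonic RNA of the whole gene in a bulk sample, where fewer cells of a type and less RNA per cell cannot be told apart. Overlaps exist too: 5 members overlap another annotated gene on the same strand (Tcf7, Lef1, Satb1, Foxo1 and Bach2), and reads shared with it can be lost to either. Per kilobase of exon, the scale used between genes, Tcf7 was highest among the 9 in naive WT cells at 604 ± 2.59 CPM per kb (SD, n = 2), followed by Klf2 at 390 ± 4.94, S1pr1 at 167 ± 2.97 and Ccr7 at 138 ± 6.02. Lef1 reached 104 ± 4.77, Satb1 65.5 ± 0.915, Foxo1 52.4 ± 1.09, Bach2 22.5 ± 0.481 and Cd44 only 2.74 ± 0.324 CPM per kb. Among WT Th1 cells of the first experiment the order had changed: Ccr7 led at 58.6 ± 4.21 CPM per kb (SD, n = 3), Satb1 followed at 47.2 ± 3.77, Cd44 came next at 34.4 ± 9.9, and Klf2 was last at 1.94 ± 0.529.

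**Figure D1:**
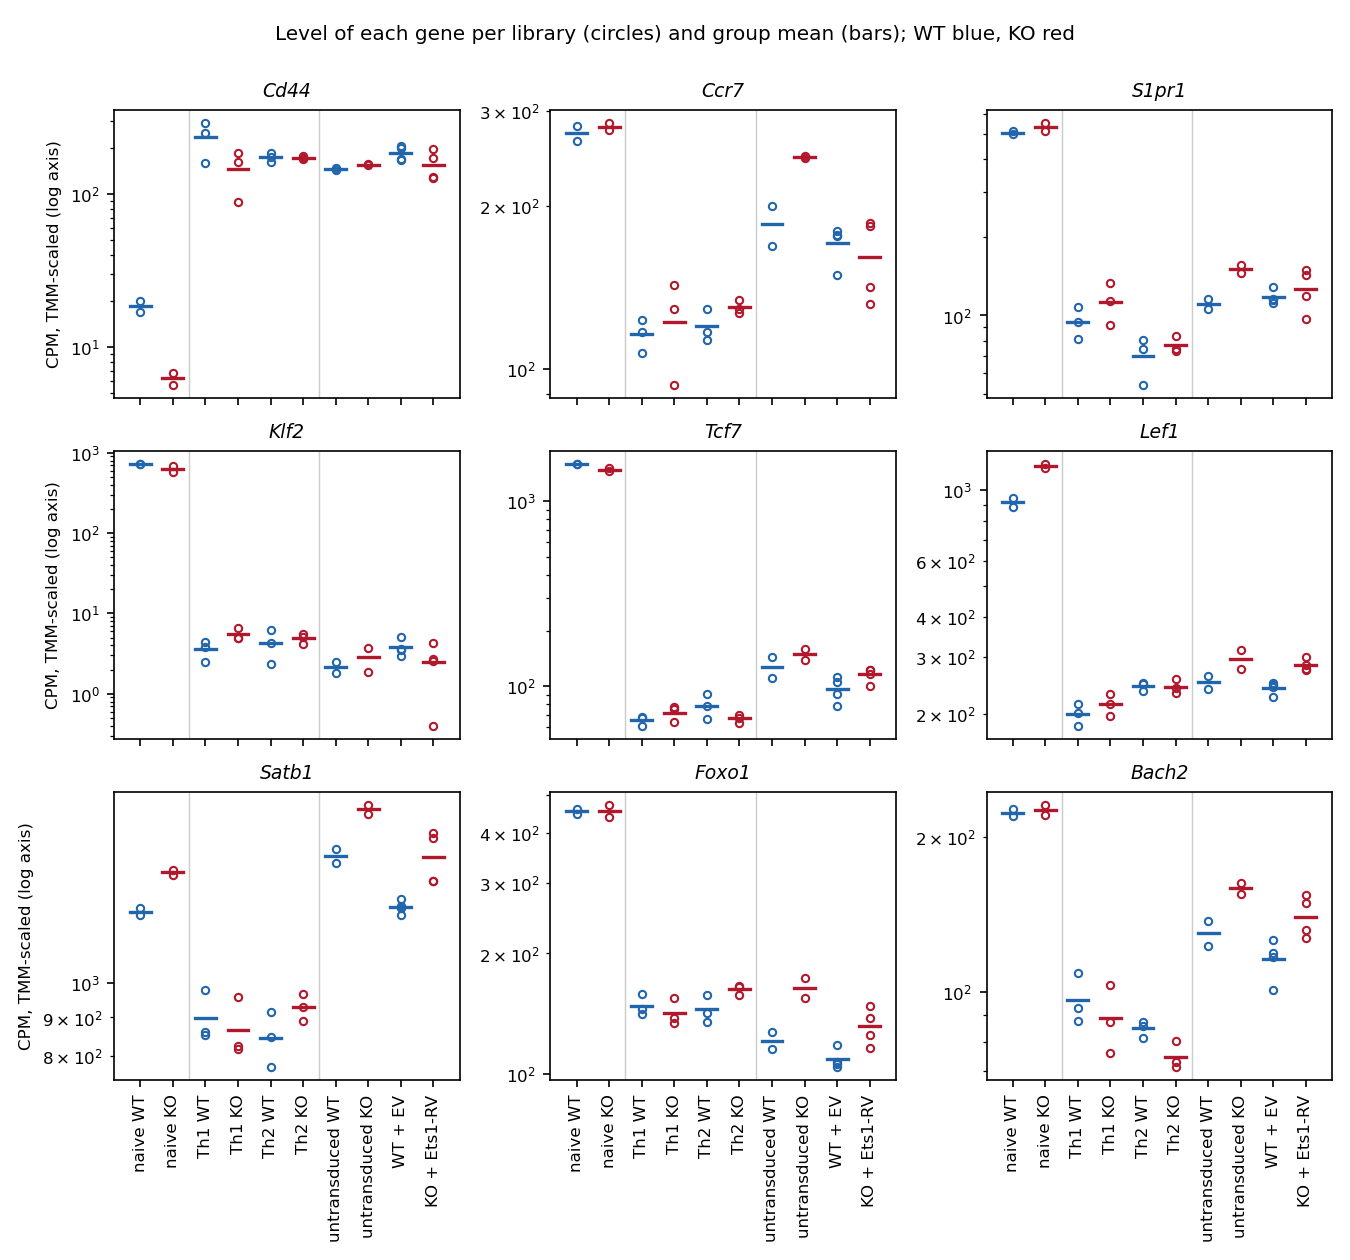
Level of the 9 genes in every labelled library (circles, CPM with TMM scaling on a log axis) and the group means (bars) for the 10 groups, with WT in blue and KO in red; vertical lines part the naive set, the first and the second experiment. Naive libraries are the lowest for Cd44 and the highest for Ccr7, S1pr1, Klf2, Tcf7, Lef1, Foxo1 and Bach2, while Satb1 reaches 1730 CPM in untransduced KO Th1 cells.

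From naive to helper cells, WT only, every member passed the test in both states: Cd44 rose and the other 8 fell. For Th1 this is 9 of 9 where 76.1% of the 14029 genes tested were called, 1 of 9 higher against 40% of genes and 8 of 9 lower against 36.1%. For Th2 it is 9 of 9 against 76.9%, with 1 higher (40.2% of genes) and 8 lower (36.6%). The median log2 fold change of the 9 was -1.63 in Th1 and -1.67 in Th2, beside medians over all genes of 0.10 and 0.08. Both comparisons use the same 2 naive WT libraries, and the calls of all 9 members held under every alternative setting and with any one library left out.

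**Figure D2:**
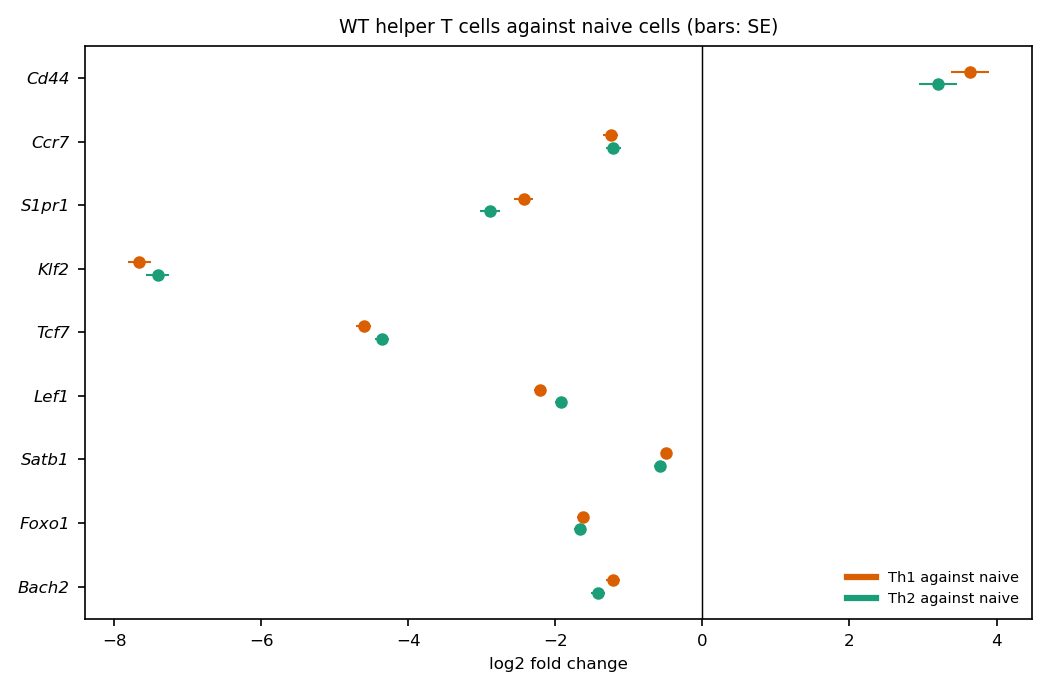
Log2 fold change of each gene in WT Th1 cells (orange) and WT Th2 cells (green) against WT naive cells, with bars of 1 SE; all 18 points passed the adjusted p threshold of 0.05. Klf2 lies farthest to the left at -7.66 and -7.41, Satb1 nearest to zero at -0.49 and -0.58, and Cd44 is alone on the right at 3.64 and 3.20.

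Among the surface receptors, Cd44 (ENSMUSG00000005087, chromosome 2, 102811141 to 102901665, minus strand) gave 20.1 and 17 CPM in the naive WT libraries, 250, 159 and 290 in Th1 and 173, 162 and 184 in Th2. Each helper library was above both naive ones. The log2 fold change was 3.64 (SE 0.257, edgeR adjusted p = 2.01e-12) in Th1 and 3.20 (SE 0.257, adjusted p = 2.66e-11) in Th2. Ccr7 (ENSMUSG00000037944, chromosome 11, 99144196 to 99155077, minus strand) kept more of its level, with 264 and 281 CPM in naive cells, 107, 117 and 123 in Th1 and 129, 117 and 113 in Th2. That is 42.5% and 43.9% of the naive mean, a log2 fold change of -1.25 (SE 0.108, adjusted p = 1.04e-10) and -1.21 (SE 0.108, adjusted p = 2.18e-10). S1pr1 (ENSMUSG00000045092, chromosome 3, 115710433 to 115715072, minus strand) fell further, from 514 and 502 CPM to 94.8, 81.1 and 108 in Th1 and 74.1, 54 and 80.7 in Th2, with log2 fold changes of -2.43 (SE 0.128, edgeR adjusted p = 4.74e-15) and -2.89 (SE 0.132, adjusted p = 2.61e-16). The entry receptor and the exit receptor thus ended at different shares of naive, 42.5% for Ccr7 against 18.6% for S1pr1 in Th1, a difference between genes that was not tested.

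Klf2 (ENSMUSG00000055148, chromosome 8, 72319033 to 72321656, plus strand) moved most. Its naive WT libraries held 714 and 727 CPM, the Th1 libraries 2.5, 4.42 and 3.80 and the Th2 libraries 4.32, 6.18 and 2.34. The helper levels were 0.496% and 0.594% of naive, 202-fold and 168-fold lower, with log2 fold changes of -7.66 (SE 0.159, edgeR adjusted p = 5.81e-23) and -7.41 (SE 0.161, adjusted p = 1.45e-22). Foxo1 (ENSMUSG00000044167, chromosome 3, 52268336 to 52353221, plus strand), which acts upstream of Klf2 in the textbook order, lost much less. It went from 461 and 447 CPM to 141, 158 and 145 in Th1 and 142, 157 and 135 in Th2, log2 fold changes of -1.63 (SE 0.0777, adjusted p = 6.1e-16) and -1.67 (SE 0.0783, adjusted p = 4.44e-16).

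Tcf7 (ENSMUSG00000000782, chromosome 11, 52252371 to 52283014, minus strand) and Lef1 (ENSMUSG00000027985, chromosome 3, 131110471 to 131224356, plus strand) encode factors that bind the same DNA sequence, and both fell. Tcf7 went from 1582 and 1591 CPM in naive cells to 61.2, 67.4 and 68.1 in Th1 and 78, 90.6 and 66.7 in Th2, 24.2-fold and 20.2-fold lower (log2 -4.61, SE 0.0961, edgeR adjusted p = 5.89e-23, and -4.36, SE 0.0957, adjusted p = 1.68e-22). Lef1 went from 887 and 946 CPM to 183, 214 and 201 in Th1 and 250, 247 and 236 in Th2, a log2 fold change of -2.21 (SE 0.0746, adjusted p = 5.5e-19) and -1.93 (SE 0.0744, adjusted p = 8.41e-18). The Th1 and Th2 libraries of Lef1 did not overlap. Satb1 (ENSMUSG00000023927, chromosome 17, 51736187 to 51833290, minus strand) changed least, from 1234 and 1259 CPM to 852, 980 and 860 in Th1 and 848, 915 and 773 in Th2 (log2 -0.49, SE 0.0788, adjusted p = 5.12e-06, and -0.58, SE 0.0788, adjusted p = 3.38e-07). Bach2 (ENSMUSG00000040270, chromosome 4, 32238804 to 32586108, plus strand) went from 220 and 227 CPM to 87.9, 92.9 and 109 in Th1 and 81.4, 87.5 and 85.7 in Th2, log2 fold changes of -1.22 (SE 0.0975, adjusted p = 2.28e-11) and -1.42 (SE 0.099, adjusted p = 1.59e-12).

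Sequence upstream of the start sites was read for the members, among them Cd44, which rose. The RefSeq promoter table (GRCm38.p6) held 15 promoters of 7 members and none of Ccr7 or S1pr1. Some windows of one gene overlap, and those of Satb1 starts 3, 4 and 5 lay wholly within its annotated exons. In the 250 bases before each start, 4 short motifs were searched on both strands: CCGGAAG for ETS factors, present in 6.91% of all 32851 promoters of the table, GTAAACA for FOXO (3.17%), CCACACCC for KLF (3.2%) and CTTTGAT for TCF and LEF (3.21%); none of the 4 motifs is part of another. Matches stood before 2 of the 15 starts. Bach2 had an ETS match on the minus strand at -12 to -6 from its start (the base just before the start is -1), and the second start of Tcf7 had an ETS match at -25 to -19 and a KLF match at -69 to -62, both on the minus strand. The 3 stretches below show these sites and, for comparison, the gene with the largest change, Klf2, whose stretch holds none of the 4 motifs. Both the Bach2 start and the second Tcf7 start lie inside the gene's annotated span, downstream of its first base. Each is written 5' to 3' on the gene's strand and free of annotated exons of its gene, and capitals mark the matches. They are Bach2 at chr4:32417185-32417434, plus strand, Tcf7 at chr11:52282596-52282711, minus strand, and Klf2 at chr8:72318812-72319032, plus strand.
Bach2: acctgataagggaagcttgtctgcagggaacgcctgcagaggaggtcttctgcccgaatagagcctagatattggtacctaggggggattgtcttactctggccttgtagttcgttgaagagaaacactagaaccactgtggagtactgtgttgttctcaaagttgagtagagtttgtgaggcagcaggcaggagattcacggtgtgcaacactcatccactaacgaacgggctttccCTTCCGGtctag
Tcf7: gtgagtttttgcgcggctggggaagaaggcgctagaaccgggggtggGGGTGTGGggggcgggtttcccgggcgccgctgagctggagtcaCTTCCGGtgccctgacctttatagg
Klf2: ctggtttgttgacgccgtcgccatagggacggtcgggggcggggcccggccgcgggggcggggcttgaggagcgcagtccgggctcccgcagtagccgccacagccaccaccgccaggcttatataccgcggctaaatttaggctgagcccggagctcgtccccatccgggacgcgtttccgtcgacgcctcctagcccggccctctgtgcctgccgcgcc
A match describes letters only. No binding was measured in these libraries.

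Other genes of the same programs were taken from lists that hold no member. Of 10 lymphoid homing receptors, 7 fell and none rose in Th1, and 7 fell and none rose in Th2; Itga4, an integrin chain of homing, had log2 fold changes of -3.75 and -5.20, and Gpr183, an oxysterol receptor, -3.61 and -4.33. Of 15 quiescence factors, 14 fell in each state, among them Klf3, a Krüppel-like repressor, at -7.52 and -6.06 and Btg1, an antiproliferative gene, at -2.87 and -2.81. The 15th, Foxo3, was 0.27 higher in Th2 (edgeR adjusted p = 0.00875) and at -0.13 in Th1 (adjusted p = 0.212). Of 12 further naive T cell genes, 8 fell and 3 rose in Th1, and 9 fell and 2 rose in Th2; Dapl1 had log2 fold changes of -7.06 and -6.12, and Themis, a T cell receptor signalling adaptor, rose by 1.55 in Th1. Activation markers moved the other way in most cases, with 11 of 14 higher and 3 lower in Th1 and 10 higher and 2 lower in Th2. Il2ra, the alpha chain of the interleukin 2 receptor, rose by 9.02 and 8.86, and Cd69 fell by 4.12 in Th1. Effector transcription factors rose in 10 of 11 cases in each state, and Eomes was the one that fell (-2.52 in Th1). Handling-stress genes, 12 in number, also differed between the sets, summing to 4206 to 4245 CPM in naive WT libraries against 1360 to 1619 in WT helper libraries of the first experiment, and 10 of the 12 were called lower and 2 higher in each state. The CD4 T cell genes fell too, 6 of 6 in Th1 (median log2 fold change -1.23) and 5 of 6 in Th2 (-1.10), medians close to the values of Ccr7 and Bach2. Myeloid markers fell in 5 of 5 tested in Th1 and 4 of 5 in Th2, from summed levels of 14.5 to 17.3 CPM in naive WT to at most 1.64, and erythroid and platelet markers in 3 of 3 tested in each state, from 18.6 to 19.1 to at most 0.238. The mitochondrial share of counts was 12.6% to 16.7% in the naive libraries and 7.4% to 9.8% in the first experiment. The part of these differences in the results was not tested.

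In naive cells 4 of the 9 differed by genotype. Cd44 and Klf2 were lower and Lef1 and Satb1 higher in KO, 4 of 9 members where 17.7% of the 11246 genes tested were called (8.75% higher and 8.92% lower). Cd44 gave 5.69 and 6.84 CPM in the KO libraries against 20.1 and 17 in WT, with no overlap, a log2 fold change of -1.56 (SE 0.231, edgeR adjusted p = 2.39e-09). Lef1 gave 1172 and 1207 CPM in KO against 887 and 946, again apart, at 0.38 (SE 0.0542, adjusted p = 3.93e-10). Both calls held under every alternative and without any one library.

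The other 2 naive calls were small and did not hold in every alternative. Klf2 gave 685 and 578 CPM in KO against 714 and 727 in WT, a log2 fold change of -0.19 (SE 0.0572, edgeR adjusted p = 0.0104). It moved to -0.06 (adjusted p = 0.444) without KO replicate 2, and was also lost without WT replicate 1 (adjusted p = 0.151), without WT replicate 2 (0.257), with DESeq2 (0.14) and with no filter on low counts (0.058). Satb1 gave 1417 and 1395 CPM against 1234 and 1259, a log2 fold change of 0.18 (SE 0.0532, adjusted p = 0.00737) that was lost without WT replicate 1 (adjusted p = 0.291), WT replicate 2 (0.199) or KO replicate 1 (0.0591). The other 5 did not pass: Tcf7 at -0.10 (SE 0.0529, adjusted p = 0.206), S1pr1 at 0.08 (SE 0.0585, 0.383), Ccr7 at 0.04 (SE 0.0646, 0.723), Bach2 at 0.02 (SE 0.0677, 0.882) and Foxo1 at 0.01 (SE 0.0596, 0.943).

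Naive WT and KO libraries also differed in sex-linked RNA. Xist, expressed from the inactive X chromosome, stood at 406 and 435 CPM in WT and at 0 in both KO libraries, while the Y-linked gene Uty was at 0 in WT and at 38.1 and 44.1 in KO, so genotype and sex cannot be told apart there. Of 12 handling-stress genes 10 were higher in naive KO and none lower, with summed levels of 6885 to 7370 CPM against 4206 to 4245 in WT. The smallest p belonged to Hspa1b, Hspa1a and Dnajb1, at log2 fold changes of 3.5, 3.87 and 1.66 (edgeR adjusted p = 4.33e-192, 1.15e-160 and 1.98e-81). The 6 erythroid and platelet markers summed to 6.39 to 6.86 against 18.6 to 19.1, 2 CD8 markers to 30.1 to 30.7 against 15.1 to 15.2, and 5 B cell markers to 2.84 to 4.26 against 5.82 to 9.41. The CD8 sum is nearly all Cd8b1, at 1.10 (edgeR adjusted p = 9.03e-09), while Cd8a, too low to test, gave 0.335 to 0.456 CPM in KO against 0.597 to 1.64. The 7 myeloid markers summed to 11.1 to 13.2 against 14.5 to 17.3, with S100a9 and Csf1r lower and Itgam higher, and 4 regulatory T cell markers to 69.1 to 73.2 against 50.7 to 52.4, with Ikzf2 and Foxp3 higher and Nrp1 lower. None of these markers was at 0 in either group. The 4 NK cell markers summed to 0.167 to 0.304 against 1.34 to 1.79, with Ncr1 and Klre1 at 0 in KO, and 2 gamma-delta T cell markers to 3.51 to 3.8 against 4.32 to 6.27, with Trdv4 at 0 in KO. The 5 dendritic cell markers summed to 0.913 to 1.67 against 1.34, with Siglech, Clec9a and Zbtb46 at 0 in KO and Xcr1 at 0 in WT. CD4 T cell genes were higher in 4 of 6, at summed levels of 2389 to 2504 against 2113 to 2129. The part of these differences in the 4 calls was not tested.

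Around the members, 5 of 9 tested homing receptors were higher and 3 lower in naive KO, with Ccr9 at 3.59 (SE 0.212, edgeR adjusted p = 1.72e-48), Cxcr4 at 1.07 (SE 0.088, adjusted p = 7.98e-28) and Gpr183 at -0.69 (SE 0.0792, adjusted p = 5.5e-15). CCR9 is the gut-homing chemokine receptor and CXCR4 the receptor of CXCL12. Of 15 quiescence factors 7 were higher and 1, Btg1, lower; Txnip, an inhibitor of thioredoxin and glucose uptake, reached 1.05 (SE 0.056, adjusted p = 3.49e-57). Activation markers, a list without Cd44, split 5 higher to 3 lower of 14. Cd6 was 0.59 higher (adjusted p = 4.41e-16) and Cd69 0.35 higher (adjusted p = 1.66e-06), while Myc was among the 3 lower. Cd69 had also fallen from naive to Th1 cells in WT. Further naive T cell genes split 5 higher to 3 lower of 12. Of the 10 effector transcription factors tested 2 were higher and 3 lower, with Irf4, an activation-induced factor, at -1.56 (SE 0.163, adjusted p = 5.17e-18). The 2 higher ones were Nfil3 and Batf, with Batf at 0.76 (SE 0.17, edgeR adjusted p = 0.000184), and both calls were lost with DESeq2. Like Irf4, both rose from naive to Th1 and Th2 cells in WT. Over the alternatives, single libraries left out included, these counts went as low as 4 higher and 2 lower for homing, 4 and 1 for quiescence, 1 and 2 for the further naive genes, 2 and 0 for activation and 0 and 1 for the effector factors.

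**Figure D3:**
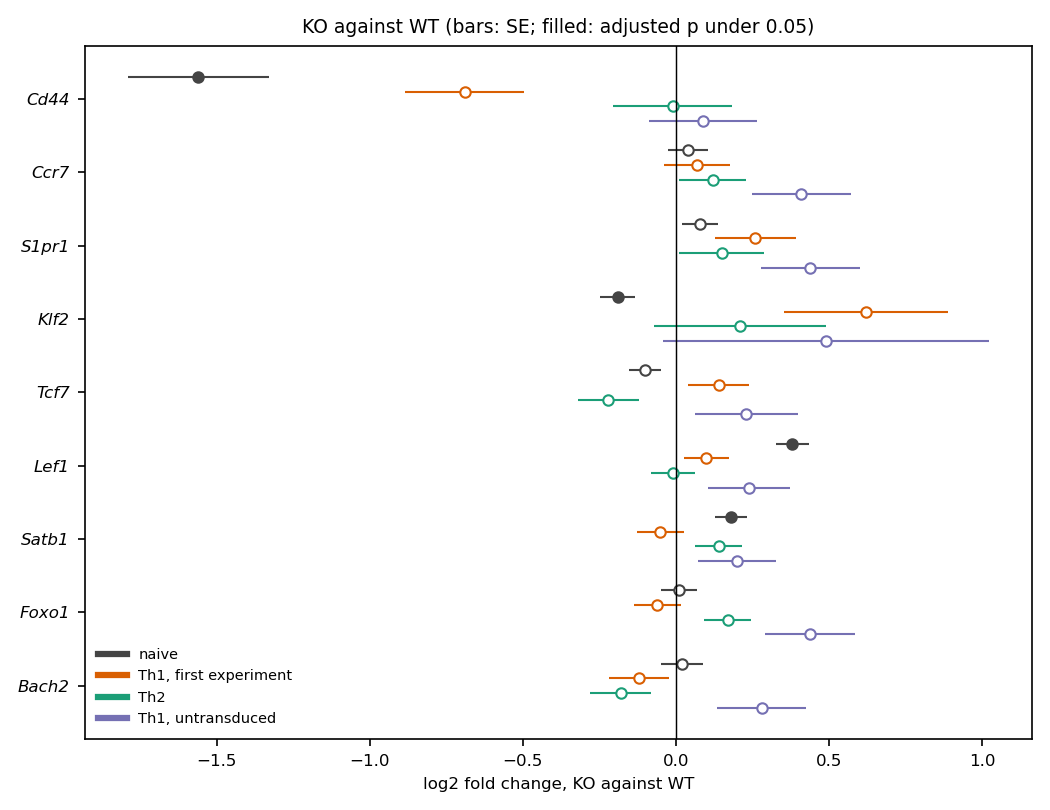
Log2 fold change of KO against WT for each gene in naive cells (grey), Th1 cells of the first experiment (orange), Th2 cells (green) and untransduced Th1 cells of the second experiment (purple), with bars of 1 SE; filled points passed an adjusted p of 0.05. Only the naive points of Cd44, Klf2, Lef1 and Satb1 are filled, and all 9 purple points lie right of zero.

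In Th1 cells of the first experiment none of the 9 differed between KO and WT, where 3.66% of 12616 genes were called. Cd44 came nearest, with 88.2, 161 and 185 CPM in KO against 250, 159 and 290 in WT. The libraries overlapped, since WT replicate 2 lay below 2 KO libraries, and the log2 fold change of -0.69 (SE 0.194) had an edgeR adjusted p of 0.0545. It passed without WT replicate 2 (-0.90, adjusted p = 0.00673), without KO replicate 3 (-0.90, 0.0247) and with counts taken without strand (0.0497). With no filter on low counts it passed (edgeR adjusted p = 1.93e-16) at an unchanged -0.69. That setting also raised the calls over all genes from 462 to 835. It did not pass with DESeq2, RLE factors or only the groups compared. Nor did it without WT replicate 1 or 3 or without KO replicate 1 or 2. Over the alternatives its log2 value ran from -0.90 to -0.44, with an adjusted p (edgeR or DESeq2) of up to 0.206. Klf2 gave 4.93, 6.55 and 5.01 CPM in KO against 2.5, 4.42 and 3.80 in WT. Those libraries did not overlap, all at a few CPM, and the log2 fold change of 0.62 (SE 0.268) did not pass (adjusted p = 0.247). The other 7 lay between -0.12 and 0.26, with edgeR adjusted p from 0.359 to 0.808. An unadjusted p under 0.05 was met by 2 of the 9, beside 16.1% of all genes. Of the 9 homing receptors tested here, 2 were higher in KO, Cxcr4 and Itgb7, and 2 were lower. Over the alternatives these counts went as low as 0 higher and 1 lower. Among the lower was Itga4, at -1.03 (SE 0.172, edgeR adjusted p = 0.00229), a call kept in every alternative.

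In Th2 cells 0 of 9 differed between KO and WT, beside 0.325% of all genes. An unadjusted p under 0.05 was met by 2 of the 9, beside 9.37% of all genes. Values ran from -0.22 for Tcf7 (SE 0.101, edgeR adjusted p = 0.501) to 0.21 for Klf2 (SE 0.281, 0.904). Cd44 was at -0.01 (SE 0.195), with 171, 169 and 176 CPM in KO and 173, 162 and 184 in WT. DESeq2 also called none of the 9 in Th1 or in Th2.

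Whether the genotype effect differed between states was tested as an interaction. All libraries of the first experiment carried Xist (161 to 280 CPM) with Uty at 0, whereas naive WT and KO differed in both, so in the naive contrasts below a difference of genotype effect and one of sex cannot be told apart. Between Th1 and Th2, 0 of 9 passed and 0% of all genes were called, although 1226 of 12616 genes and 3 of the 9 had an unadjusted p under 0.05 and DESeq2 called 22 genes, no member among them. With no filter on low counts Cd44 passed at -0.69 (edgeR adjusted p = 3.07e-07), and calls over all genes rose from 0 to 213. Between naive and Th1, 0 of 9 passed (3.05% of 14029 genes), and 2 members had an unadjusted p under 0.05, beside 15.8% of genes. Klf2 was at -0.82 (SE 0.255, edgeR adjusted p = 0.0853) and Cd44 at -0.87 (SE 0.447, 0.354). Both passed with no filter on low counts (edgeR adjusted p = 0.00185 and 0.0018), where 619 genes were called beside 428. Between naive and Th2, 1 of 9 passed (3.31% of genes), Lef1 at 0.38 (SE 0.106, adjusted p = 0.045). That call was lost on leaving out any one of 8 of the 10 libraries (all 4 naive libraries, WT Th2 replicates 1 and 2, KO Th2 replicates 1 and 3), with adjusted p from 0.0625 to 0.163. Cd44 was at -1.56 (SE 0.442, edgeR adjusted p = 0.0507) and passed with DESeq2 (0.022), with no filter on low counts (2.88e-12) and without WT Th2 replicate 3 (0.0496). Without the filter 643 genes were called beside 465.

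Between the helper states, S1pr1 and Lef1 differed in WT cells, 2 of 9 members beside 29.5% of 12616 genes. S1pr1 was higher in Th1, by 0.44 (SE 0.138, edgeR adjusted p = 0.0198), and Lef1 lower, by -0.30 (SE 0.0727, adjusted p = 0.0042). The Lef1 call held in every alternative. The S1pr1 call was lost without Th1 WT replicate 1 (adjusted p = 0.0535), Th1 WT replicate 3 (0.0871) or Th2 WT replicate 2 (0.101). Without Th1 WT replicate 2 Cd44 passed at 0.64 (adjusted p = 0.0105), as it did with no filter on low counts (0.45, adjusted p = 9.42e-08), and without Th2 WT replicate 3 Tcf7 passed at -0.37 (adjusted p = 0.00736). In KO cells 1 of 9 differed, beside 17.5% of genes: S1pr1 was again higher in Th1, at 91.7, 134 and 114 CPM against 74.1, 73.2 and 83.5, by 0.55 (SE 0.135, adjusted p = 0.00761). It was lost without Th1 KO replicate 2 (adjusted p = 0.0662). Bach2 passed without Th1 KO replicate 1 (0.34, adjusted p = 0.0204), and Lef1 and Foxo1 passed without Th1 KO replicate 3 (-0.24, 0.0491, and -0.26, 0.037). Among the homing receptors 5 of 9 tested were higher in WT Th1 than Th2 and none lower, with Itga4 at 1.44 (SE 0.184, adjusted p = 8.69e-06). Of the quiescence factors 7 of 15 were lower and 2 higher in Th1, with Tsc22d3, a glucocorticoid-induced leucine zipper gene, at -1.08 (SE 0.119, adjusted p = 1.56e-06).

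The second experiment compared transduced and untransduced Th1 cells; libraries that share a group and a B number were summed, which left 2 units per group. Among untransduced cells 0 of 9 differed between KO and WT (1.24% of 11072 genes). An unadjusted p under 0.05 was met by 3 of the 9, beside 14.1% of all genes. All 9 values lay above zero, from 0.09 for Cd44 (SE 0.176, edgeR adjusted p = 0.87) to 0.49 for Klf2 (SE 0.533, 0.748), and their median was 0.28 beside -0.01 over all genes. Foxo1 gave 174 and 155 CPM in KO against 115 and 127 in WT, a log2 fold change of 0.44 (SE 0.147, adjusted p = 0.173). S1pr1 gave 156 and 146 against 116 and 106, at 0.44 (SE 0.161, 0.215), and Ccr7 gave 247 and 245 against 200 and 169, at 0.41 (SE 0.161, 0.248). The libraries of these 3 genes were apart, as were those of Cd44, Lef1, Satb1 and Bach2, and none of these differences passed. Those of Klf2 and Tcf7 overlapped. Sex-linked RNA followed the B number here, with Uty in every library of B number 1 and high Xist in every library of B number 2, so both genotypes held both. DESeq2 called none of the 9.

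**Figure D4:**
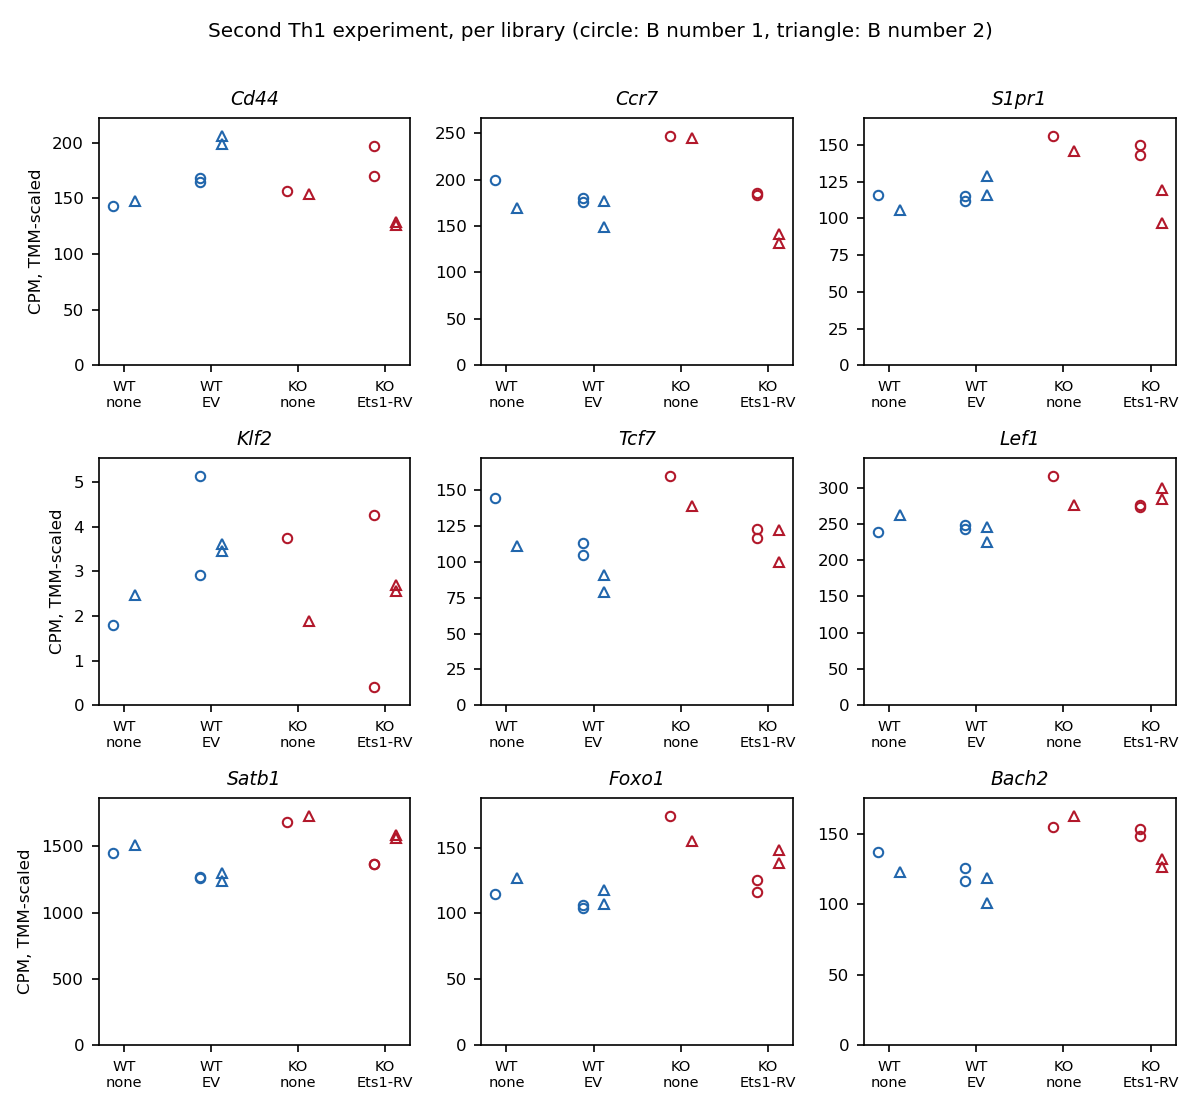
Level of each gene in the labelled libraries of the second experiment (CPM with TMM scaling, axes from 0), for WT without virus, WT with empty vector (EV), KO without virus and KO with the Ets1 retrovirus; circles are B number 1 and triangles B number 2. Ccr7 is highest in untransduced KO cells at 245 to 247 CPM, and Cd44 with the Ets1 virus splits by B number into 170 to 197 and 126 to 129.

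Empty vector against no virus in WT changed 0 of 9, with 0% of all genes called; 268 genes and 1 member had an unadjusted p under 0.05, and DESeq2 called no gene. Members lay between -0.39 for Tcf7 (SE 0.165) and 0.79 for Klf2 (SE 0.435). The Ets1 virus against no virus in KO raised Ets1 from 246 and 273 CPM to 521, 500, 430 and 429 (log2 0.85, SE 0.138, edgeR adjusted p = 0.0196), a call lost without untransduced KO B number 1, without either B number of the virus group and with only the groups compared in the fit (adjusted p from 0.0522 to 0.425). It changed 0 of 9 members (0.19% of genes), with 3 at an unadjusted p under 0.05, beside 10.5% of genes. Ccr7 was at -0.62 (SE 0.161, adjusted p = 0.157), with 184, 186, 132 and 142 CPM against 247 and 245, all 4 below both, and passed with no filter on low counts or with libraries not summed (adjusted p = 0.0195 in each). None of the 9 log2 values was above zero and their median was -0.24, beside 3 of 9 above zero and a median of -0.12 for the empty vector in WT. The untransduced KO libraries also enter the KO against WT comparison above, there with the opposite sign. The signs of these comparisons are therefore not independent. Cd44 was at -0.00 (SE 0.174). Its 4 libraries with the virus, 170 and 197 CPM at B number 1 and 126 and 129 at B number 2, lay on both sides of the untransduced 157 and 154.

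The difference between the Ets1-virus change in KO and the empty-vector change in WT, which also differs in genotype, was past the threshold for 0 of 9 members and 0% of genes. There 528 genes and 1 member had an unadjusted p under 0.05, and DESeq2 called 3 genes, no member among them. Klf2 had the lowest value, -1.04 (SE 0.667, edgeR adjusted p = 0.991), on levels of 0.398 to 5.14 CPM in the 8 transduced libraries. Ccr7 was at -0.50 (SE 0.225, adjusted p = 0.991).

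Across all 10 groups Klf2, Foxo1, S1pr1, Tcf7, Lef1, Ccr7 and Bach2 had their 2 highest means in the naive groups, apart from every helper library. Below them, helper groups next to each other in this order of means mostly overlapped. Satb1 broke this order: untransduced Th1 cells of the second experiment gave 1449 and 1510 CPM in WT and 1684 and 1730 in KO, above the naive level of the same strain on this scale (1.19 and 1.21 times) but below it when library totals were used without TMM (0.931 and 0.913 times). Tcf7 in untransduced WT cells, at 145 and 111 CPM, was 1.95 times its level in the first experiment's WT Th1 cells (1.48 times without TMM), and Ccr7, at 200 and 169, was 1.59 times (1.20 without TMM). Untransduced libraries were mostly apart from first-experiment Th1 libraries of the same genotype. Outside Cd44, only S1pr1 in WT and Foxo1 in KO overlapped. Klf2 in both genotypes and Foxo1 in WT were lower in untransduced cells, and the other separated genes were higher on this scale. Without TMM the Lef1 ratios were 0.94 in WT and 1 in KO, and S1pr1 in KO was at 0.962. Cd44 was lowest in naive KO, next lowest in naive WT, and at group means of 145 to 233 CPM in the 8 helper groups, whose neighbours in the order overlapped except Th2 KO and untransduced KO.

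Over the 10 group means of log2 CPM, Tcf7 and Lef1 correlated at 0.99, S1pr1 and Tcf7 at 0.98, and Klf2 and Foxo1 at 0.97 (Pearson, n = 10 groups). Cd44 ran against Lef1 at -0.98 and against Klf2 at -0.96. Satb1 followed the others least, at 0.14 with Klf2 and 0.17 with Foxo1, and closest to Ccr7 at 0.80. These coefficients are a description of 10 points, of which the 2 naive ones come from their own set of libraries. Among 7582 other protein-coding genes with a mean of at least 10 CPM, the genes most like each member over the same 10 groups were Naf1 and Lrp8 for Cd44 (0.993 each), Zbtb18 and Zbtb4 for Ccr7 (0.988 and 0.985), and Cmah and Ikzf1 for S1pr1 (0.993 and 0.992). Klf2 was followed by Pnpla7 and Fosb (0.996 and 0.995), Tcf7 by Stk17b and Kbtbd2 (0.998 and 0.997), Lef1 by Tob1 and Klf4 (0.997 each), and Satb1 by Eif1 and Rc3h2 (0.98 and 0.974). For Foxo1 they were Scml4 and Fry (0.994 and 0.993), and for Bach2 Mef2a and Rb1cc1 (0.988 each).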

How the data were processed

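Gene counts of 36 mouse RNA-seq libraries were used as the authors deposited them: raw read counts per gene, written by STAR 2.5.0a on GRCm38, per the submitters' processing notes, from stranded total RNA libraries, per the labels' protocols. No annotation release was named; 45143 of 45706 identifiers matched GENCODE M21, and 563 did not. The count column of the strand holding 93.3% to 95.2% of stranded gene counts was used. Lines naming no gene, 63.6% to 76.0% of the total, were left out. Genes passing filterByExpr were tested with edgeR 4.0.16 (TMM factors, quasi-likelihood test, Benjamini-Hochberg over all genes tested, threshold 0.05) in R 4.3.3, separately for the naive set, the first experiment, both together, and the second experiment, where libraries of one group and B number were summed. The SE is the log2 fold change divided by the root of F. Alternatives were DESeq2 1.42.0, RLE factors, no filter, counts without strand, only the groups compared, a replicate block, unsummed libraries and leaving out each library. The scripts were tested on simulated counts. All 9 members were named everywhere, and from each list up to 3 called genes with the smallest p per comparison, beside Btg1 in naive cells and Foxo3, Themis, Cd69 and Eomes against naive cells, singled out after their values were seen. Motifs were searched in the 250 bases upstream, not in the whole promoter entries first planned. The likeness measure took log2 of CPM plus 0.5. Members, lists and tests were chosen with earlier results of these data known. One gene of the homing list is not reported here by name.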

Additional observations from a re-analysis of the deposited data

Results flagged for a closer look

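Ccr7 in the WT cells with empty vector had 1 library apart from the other 3: the lowest gave 149 CPM beside 176, 177 and 180. Of the 18 sets of 4 libraries examined in this way (9 genes in 2 groups) this was the only one. About 1 in 20 would be met by chance with 4 independent libraries. Each set here is made of pairs that share a B number, so that rate does not apply. The KO effect on Lef1 differed between naive and Th2 cells by 0.38 on the log2 scale in the interaction test (edgeR adjusted p = 0.045), a call lost on leaving out any one of 8 of the 10 libraries; naive WT and KO also differ in sex-linked RNA.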

How the results depend on the processing

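No member's call reversed direction under any alternative. Counts of members called, out of 9, changed as follows. With no filter on low counts, naive KO against WT gave 3 in place of 4, WT Th1 against Th2 3 in place of 2, Th1 KO against WT gave 1, the Th1 against Th2 difference in KO effect 1, KO Th1 against Th2 3, the naive against Th1 difference 2, the naive against Th2 difference 2, and the Ets1 virus in KO 1. DESeq2 gave 3 in naive cells and 2 for the naive against Th2 difference. Counts without strand gave 1 for Th1 KO against WT, and unsummed libraries gave 1 for the Ets1 virus in KO. Leaving out 1 library gave 2 to 3 members in naive cells, 0 to 1 for Th1 KO against WT, 1 to 3 for WT Th1 against Th2, 0 to 3 for KO Th1 against Th2 and 0 to 2 for the naive against Th2 difference. The cause was not tested.

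The labels do not say that a number marks a shared animal or batch. Same-numbered libraries correlated in their deviations from group means at -0.046 in naive cells, -0.072 to 0.2 in the first experiment and 0.046 to 0.299, all positive, over the 2 B numbers of the second, where sex-linked RNA also followed the number. The block was kept as an alternative. With the replicate block, naive cells gave 3 members called, since Satb1 passed no longer (adjusted p = 0.0536), Th1 KO against WT gave 1 (Cd44, 0.023), WT Th1 against Th2 3 (Tcf7 added, 0.0425), KO Th1 against Th2 2 (Bach2 added, 0.0428) and the naive against Th2 difference 2 (Cd44 added, 0.0179); the other comparisons kept their counts of members called. Not every library correlated best with its own number in the first experiment.

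Calls over all genes in naive cells fell from 1987 to 713 with DESeq2 and to between 399 and 1217 with 1 library left out. Th2 KO against WT ranged from 14 to 224 calls beside 41, Th1 KO against WT from 176 to 835 beside 462, the Ets1 virus in KO from 0 to 212 beside 21 untransduced KO against WT from 22 to 416 beside 137, KO Th1 against Th2 from 1380 to 2528 beside 2210, and the naive differences in KO effect from 170 to 619 beside 428 (Th1) and from 190 to 643 beside 465 (Th2). The 3 comparisons with no gene called reached 213 (Th1 against Th2 difference), 17 (empty vector) and 29 (difference of the virus changes) with no filter on low counts. The median of all genes in Th1 against naive shifted by -0.1 with DESeq2 and with no filter. Levels without TMM scaling moved by more than 1 SD in 71 of 90 cases. Klf2 in helper cells, at 0.398 to 6.55 CPM, is limited by depth.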

Other observations

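In the second experiment 8 libraries have a title and a transduction label that disagree, and their values stand here without comparison. The 4 titled as KO with empty vector and labelled as Ets1-transduced gave 680 to 751 CPM of Ets1 (median 716) and 3.18 to 6.06 CPM of Gm27162 (median 4.04), the RNA that had no count in any library of the labelled KO groups. The 4 titled as WT with the Ets1 virus and labelled as empty vector gave 218 to 298 CPM of Ets1 (median 250), and Gm27162 was at 0 in all 4. In the first set of 4 the lowest, median and highest CPM were 159, 174 and 182 for Cd44, 154, 189 and 231 for Ccr7, 92.8, 103 and 116 for S1pr1, 3.47, 4.33 and 6.75 for Klf2, and 61.4, 89.4 and 110 for Tcf7. Lef1 gave 239, 262 and 266, Satb1 1341, 1352 and 1363, Foxo1 109, 116 and 123, and Bach2 104, 113 and 122. In the second set of 4 they were 140, 164 and 195 for Cd44, 134, 187 and 237 for Ccr7, 119, 139 and 168 for S1pr1, 1.3, 1.89 and 3.21 for Klf2, and 113, 120 and 151 for Tcf7. Lef1 gave 304, 317 and 335, Satb1 1460, 1557 and 1638, Foxo1 141, 150 and 152, and Bach2 138, 142 and 146 there.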
